A study of Mus musculus with 24 samples.

Results

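Aminoacyl-tRNA synthetases were followed in the livers of mice with and without the C26 tumour. They are the enzymes that join each amino acid to its transfer RNA and so supply every ribosome with charged tRNA. Members were the genes whose Ensembl identifier has a protein-coding synthetase symbol in GENCODE M21. These were symbols made of a one-letter amino acid code and ars, with or without 1, 2, l or l2, together with Eprs, Farsa and Farsb. All 38 such genes of the annotation were among the 22392 genes of the table, and all 38 passed the filter on low values, a mean of at least 10 normalised reads. By textbook location 19 encode cytosolic enzymes, 17 encode mitochondrial enzymes and 2, Gars and Kars, encode both forms.

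The study sequenced liver RNA of 24 CD2F1 mice, 8 in each of 3 groups. CT mice received a sham injection. C26 mice were injected with cells of the C26 colon carcinoma, a transplanted tumour line used to model cancer wasting, and had no treatment. C26-CHO mice bore this tumour as well and ate a diet with 2% cholestyramine by weight, from day 1 to day 10 after the injection. Cholestyramine is a bile acid binding resin that acts within the gut. No mice without tumour were given cholestyramine, so its comparison is made within tumour-bearing mice. The labels give no age, sex or sequencing batch.

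The cytosol and the mitochondrion translate separate sets of mRNA, and most amino acids have a separate nuclear gene for the synthetase of each compartment. The cytosolic enzymes serve bulk protein synthesis, which in liver includes the plasma proteins, while the mitochondrial enzymes serve the few respiratory chain subunits encoded by mitochondrial DNA. Many cytosolic synthetase genes are known targets of ATF4, the transcription factor of the amino acid and integrated stress response, which binds DNA elements with the core TGATGNAA. Synthetases fall into class I and class II by the fold of their catalytic domain, and several cytosolic ones are held in a multisynthetase complex by scaffold proteins.

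Promoter sequences are given for the members that hold this core, so that its place and strand can be read. RefSeq promoters on GRCm38.p6, from 250 bases before to 50 bases after the RefSeq start, were found for 28 of the 38 members. The core TGATGNAA was searched on both strands. It was found in 4 of 12 cytosolic members (Aars, Iars, Tars and Yars), in 0 of 14 mitochondrial members and in Gars of the pair that serves both compartments. Of all 27025 genes with a promoter in the same table, 4.51% held it. The sequences below run 5′ to 3′ on the strand of the gene, from 250 bases before to 30 bases after the start. Capitals mark the match, which is on the gene's own strand in Yars and on the other strand in the rest, where it reads as its reverse complement. Their positions on GRCm38.p6 are chr8:111033592-111033871 on the plus strand for Aars, chr13:49681880-49682159 on the plus strand for Iars, chr15:11399629-11399908 on the minus strand for Tars, chr4:129189653-129189932 on the plus strand for Yars and chr6:55037751-55038030 on the plus strand for Gars.
Aars: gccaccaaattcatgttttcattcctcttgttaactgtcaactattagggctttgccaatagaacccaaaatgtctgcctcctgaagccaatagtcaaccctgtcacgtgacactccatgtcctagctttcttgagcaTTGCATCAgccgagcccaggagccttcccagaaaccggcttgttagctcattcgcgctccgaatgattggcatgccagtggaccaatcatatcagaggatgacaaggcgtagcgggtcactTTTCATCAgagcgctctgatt
Iars: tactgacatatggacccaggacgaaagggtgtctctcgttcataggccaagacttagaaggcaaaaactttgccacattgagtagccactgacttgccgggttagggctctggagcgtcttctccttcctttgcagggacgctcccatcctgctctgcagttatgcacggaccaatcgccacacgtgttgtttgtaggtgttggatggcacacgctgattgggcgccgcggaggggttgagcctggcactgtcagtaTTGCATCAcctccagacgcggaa
Tars: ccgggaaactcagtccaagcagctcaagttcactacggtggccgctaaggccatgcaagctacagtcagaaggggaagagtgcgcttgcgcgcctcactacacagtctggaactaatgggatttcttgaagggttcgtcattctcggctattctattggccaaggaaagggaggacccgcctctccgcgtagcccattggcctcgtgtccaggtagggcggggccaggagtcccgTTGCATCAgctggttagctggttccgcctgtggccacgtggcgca
Yars: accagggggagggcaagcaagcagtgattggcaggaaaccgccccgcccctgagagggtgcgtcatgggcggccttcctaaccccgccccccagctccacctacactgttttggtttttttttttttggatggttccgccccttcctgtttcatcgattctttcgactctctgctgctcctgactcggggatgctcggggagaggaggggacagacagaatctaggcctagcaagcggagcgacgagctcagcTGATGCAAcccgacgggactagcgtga
Gars: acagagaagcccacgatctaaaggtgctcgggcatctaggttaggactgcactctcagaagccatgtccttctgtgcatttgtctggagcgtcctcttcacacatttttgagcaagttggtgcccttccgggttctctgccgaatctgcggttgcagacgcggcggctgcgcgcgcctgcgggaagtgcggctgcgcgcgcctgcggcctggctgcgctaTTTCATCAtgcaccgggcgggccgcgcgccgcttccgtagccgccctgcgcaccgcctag

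Aars held a pair of matches, starting 112 bases before and at base 10 after the RefSeq start. Both lie downstream of the GENCODE M21 start of Aars, at chr8:111033144. The match began at base 4 after the start in Yars and at base 8 in Iars, and 15 and 30 bases before it in Tars and Gars. A match is a description of letters and not a binding site. Beyond the members, 8 of 27 genes of a list of ATF4 targets and amino acid response genes held the core, and 0 of 8 mitochondrial translation factors. The members with no promoter in the table include Cars, Hars, Hars2, Lars, Nars, Pars2, Rars, Vars and Wars.

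The libraries held 19.9 to 30.5 M reads. Values below are normalised read counts, the deposited counts divided by a size factor of each library. Fold changes are log2 differences of value plus 1 with the standard error (SE) of a limma fit, and a gene was called at an adjusted p under 0.05 over all 14040 genes tested. By the median placing of the called members between the CT and C26 means, given with the C26-CHO results, the library C26-CHO 1 was nearest to CT among the treated mice, and results that rest on it are given with and without it.

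The comparison of C26 with CT addresses the effect of the tumour on the liver. Most cytosolic synthetase mRNAs rose and most mitochondrial ones that were called fell. Of 19 cytosolic members 15 rose, 2 fell (Tarsl2 and Dars) and 2 were not called (Farsa and Farsb), with a median log2 fold change of 0.26. Of 17 mitochondrial members 3 rose, 9 fell and 5 were not called, with a median of -0.26. These counts stand against a background in which 66.3% of all tested genes were called, 33.3% higher and 32.9% lower, with a median of 0.01. The split by direction is given as counts, with no test of the list. The values of every C26 mouse lay above those of every CT mouse in 11 cytosolic members and below in 2, against 1 above and 7 below among mitochondrial members. Over all tested genes 35% had groups that did not overlap, 16.9% above and 18% below.

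**Figure D1:**
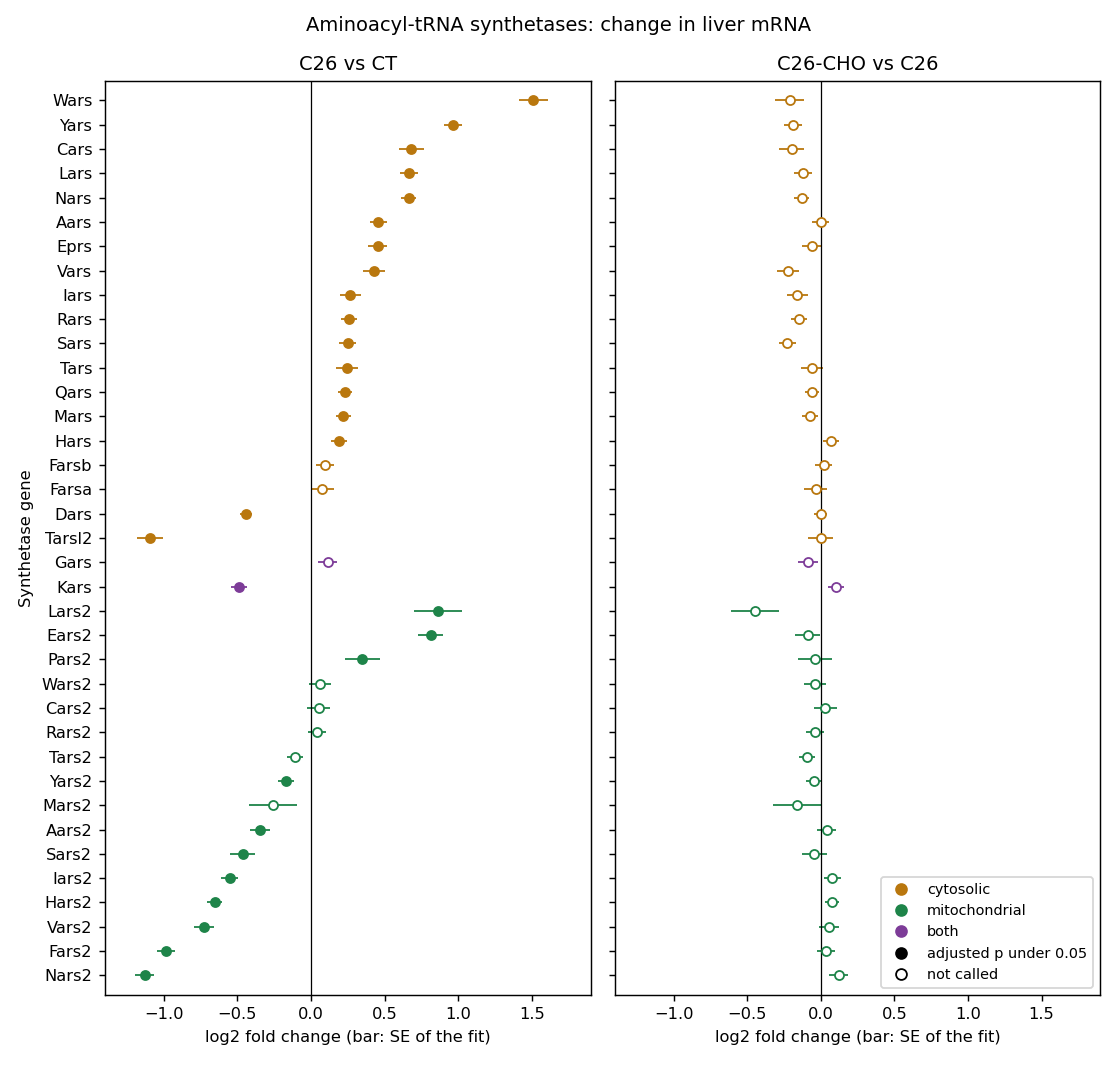
Log2 fold change of 37 synthetase mRNAs (x axis, with bars for the SE of the fit) in C26 vs CT on the left and in C26-CHO vs C26 on the right, coloured by compartment, with filled points for an adjusted p under 0.05. In C26 vs CT, 15 of 19 cytosolic points are filled to the right of 0. Of the 16 mitochondrial points drawn 8 are filled to the left and 3, Lars2 among them, to the right (1 mitochondrial member is not drawn). No point is filled in C26-CHO vs C26.

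Wars, the tryptophan enzyme, had the largest rise of the members. Its normalised reads ran from 278.5 to 411 in CT mice (median 353), from 828 to 1282 in C26 mice (median 949) and from 603 to 1031 in C26-CHO mice (median 840). Every tumour-bearing mouse of either group lay above every CT mouse. The change from CT to C26 was 1.51 (SE 0.0992, limma adjusted p = 9.52e-13). The gene lies at chr12:108860030-108894174 (GENCODE M21, GRCm38).

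Yars, the tyrosine enzyme, followed, and had the smallest coefficient of variation of the cytosolic members in CT (4.205%). Its reads ran from 607 to 685 in CT (median 669), from 1200.0 to 1373 in C26 (median 1288) and from 955 to 1318 in C26-CHO (median 1150). C26 values were thus all well above CT values, and the C26-CHO values spread from between the groups into the C26 range. The change from CT to C26 was 0.96 (SE 0.0612, limma adjusted p = 5.28e-13). The gene lies at chr4:129189760-129219607, and the core shown above lies downstream of both that GENCODE start and the later RefSeq start.

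The cysteine, leucine and asparagine enzymes rose by similar amounts. Cars went from 444 to 647 in CT (median 559) to 755 to 1019 in C26 (median 882), a change of 0.68 (SE 0.0849). Lars went from 583 to 751 in CT (median 716) to 1004 to 1275 in C26 (median 1087), a change of 0.66 (SE 0.0600). Nars went from 2059 to 2529 in CT (median 2344) to 3392 to 3888 in C26 (median 3597), a change of 0.66 (SE 0.0506). In each of them no C26 mouse overlapped a CT mouse, and the limma adjusted p lay between 1.63e-11 and 1.06e-07.

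Aars, the alanine enzyme, was among the most abundant synthetase mRNAs. It had 3759 to 4906 reads in CT (median 4303), 5476 to 6378 in C26 (median 5962) and 5237 to 7006 in C26-CHO (median 5951). All tumour-bearing mice lay above all CT mice, and the change from CT to C26 was 0.46 (SE 0.0573, limma adjusted p = 1.26e-07). Eprs, a single protein that charges both glutamate and proline tRNA, rose by 0.45 (SE 0.0653) from 2454 to 3188 reads in CT to 3554 to 4247 in C26. Vars, the valine enzyme, rose by 0.43 (SE 0.0722). The other 7 rises were small, between 0.19 for the histidine enzyme Hars and 0.27 for the isoleucine enzyme Iars, and included Rars, Sars, Tars, Qars and Mars, which charge arginine, serine, threonine, glutamine and methionine. C26 and CT mice overlapped in Hars, Tars, Qars and Mars.

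Tarsl2 and Dars went the other way. Tarsl2, a second cytosolic threonine enzyme, had 252.5 to 312 reads in CT (median 287) and 113 to 147 in C26 (median 134), with no overlap. It fell by 1.09 on the log2 scale (SE 0.0870, limma adjusted p = 3.41e-11), while its cytosolic counterpart Tars rose by 0.25 (adjusted p = 0.00491). Dars, the aspartate enzyme, had 1165 to 1369 reads in CT (median 1238) and 839 to 994 in C26 (median 923), again with no overlap, and fell by 0.44 (SE 0.0438). Farsa and Farsb, the subunits of the cytosolic phenylalanine enzyme, had 0.08 and 0.09 (adjusted p = 0.407 and 0.172).

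The class of the catalytic domain and membership of the complex were set beside these directions. The shares over all tested genes were 33.3% higher and 32.9% lower. All 9 cytosolic class I members rose (median 0.43), as did 5 of 9 class II members, while 2 of those fell. Eprs holds a domain of each class and was left out of that count. Of the mitochondrial members 2 of 9 in class I rose and 3 fell, and 1 of 8 in class II rose and 6 fell. Of the 8 synthetases of the multisynthetase complex 6 rose and 2, Dars and Kars, fell. Of the 12 cytosolic members outside the complex 9 rose and 1 fell. None of the 3 scaffolds that hold the complex was called higher: Aimp1 fell by 0.22 (SE 0.0471, limma adjusted p = 0.000266), and Eef1e1 and Aimp2 had 0.05 and -0.02 (adjusted p = 0.608 and 0.889).

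Kars, whose transcript forms supply the lysine enzyme of both compartments, had 1066 to 1266 reads in CT (median 1160) and 768 to 916 in C26 (median 824). No C26 mouse reached the CT range, and the change was -0.49 (SE 0.0562, limma adjusted p = 2.67e-08). Gars, the glycine enzyme of both compartments, had 939 to 1134 reads in CT and 945 to 1295 in C26, with wide overlap. Its change of 0.11 was not called (adjusted p = 0.131), and under quantile normalization it was 0.19 and called (adjusted p = 0.0183).

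**Figure D2:**
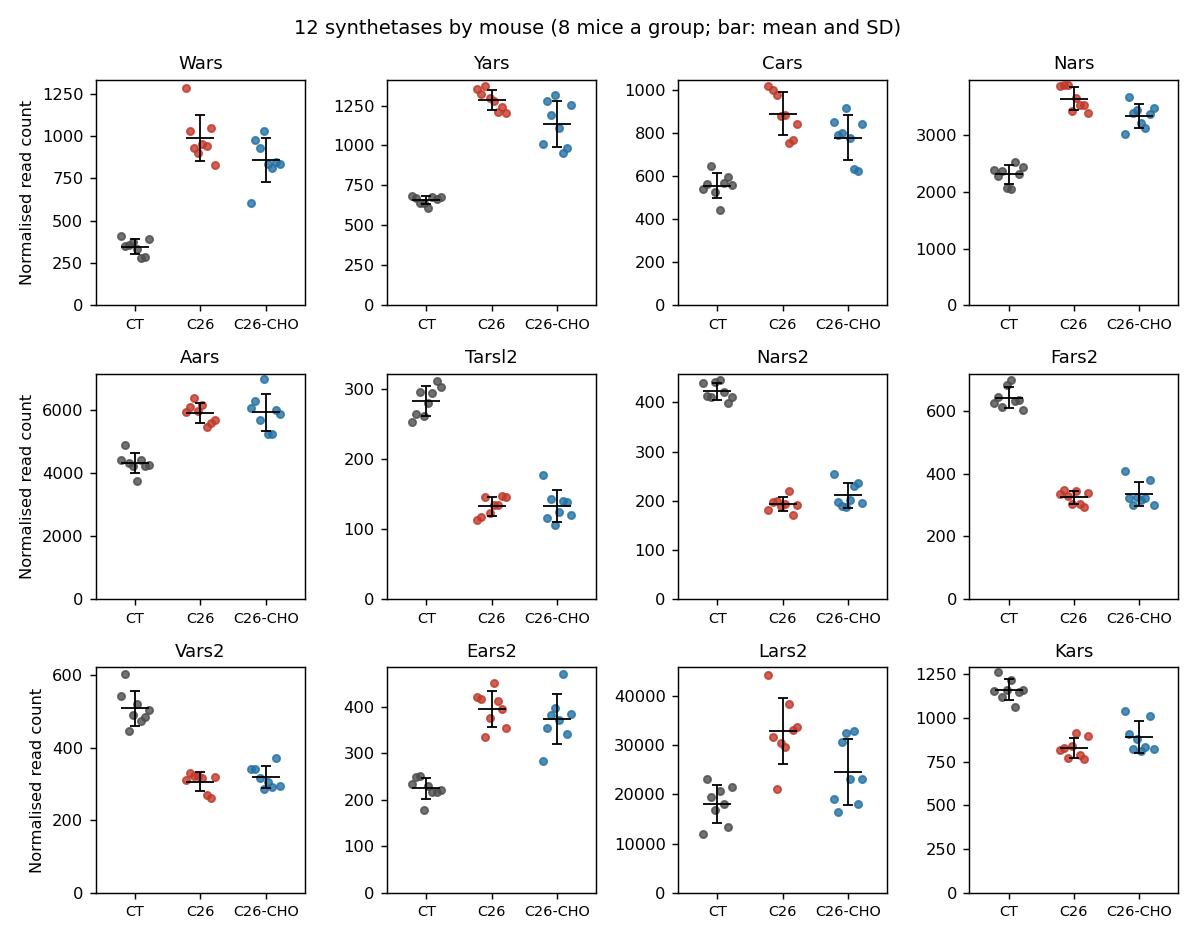
Normalised read count (y axis, from 0) of 12 synthetases in each of 8 CT, 8 C26 and 8 C26-CHO mice; points are mice, the wide bar is the mean and the whiskers are 1 SD. Wars, Yars, Cars, Nars and Aars lie higher in all C26 mice than in all CT mice, and Tarsl2, Nars2, Fars2, Vars2 and Kars lie lower.

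Among mitochondrial members the asparagine enzyme Nars2 fell most. Its reads ran from 400 to 445 in CT (median 417), from 171 to 220.5 in C26 (median 192) and from 187 to 254 in C26-CHO (median 199). The lowest CT mouse thus lay far above the highest tumour-bearing mouse. The change from CT to C26 was -1.13 (SE 0.0644, limma adjusted p = 6.08e-14), against the rise of 0.66 in the cytosolic enzyme for the same amino acid. Nars2 lies at chr7:96951505-97064758.

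Fars2, the mitochondrial phenylalanine enzyme, had 603 to 700.4 reads in CT (median 635), 293 to 350 in C26 (median 331.5) and 299 to 408 in C26-CHO (median 323). Again the CT mice stood apart from both tumour groups. The change from CT to C26 was -0.98 (SE 0.0614, limma adjusted p = 3.93e-13). Vars2, for valine, went from 446 to 603.5 reads in CT (median 496) to 260 to 329 in C26 (median 318), and fell by 0.73 (SE 0.0683). The next falls were 0.66 for Hars2, 0.55 for Iars2 and 0.47 for Sars2, which charge histidine, isoleucine and serine. They were followed by 0.35 for Aars2 and 0.17 for Yars2, for alanine and tyrosine. Adjusted p for these 5 lay between 1.34e-11 and 0.00632, and C26 mice overlapped CT mice in Sars2 and Yars2.

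Ears2, Lars2 and Pars2 were the mitochondrial members that rose. Ears2, for glutamate, had 178 to 252 reads in CT (median 225) and 335 to 451 in C26 (median 403), so that all C26 mice were above all CT mice, and its change was 0.81 (SE 0.0844, limma adjusted p = 4.47e-09). Pars2, for proline, had 44.4 to 76.6 reads in CT and 57.4 to 91.0 in C26, which overlapped. Its change of 0.35 (SE 0.118, adjusted p = 0.0114) was 0.25 and not called under quantile normalization (adjusted p = 0.0561). Tars2, Mars2, Wars2, Cars2 and Rars2 were not called, with changes of -0.11, -0.26, 0.06, 0.05 and 0.04, and Wars2 was -0.04 under quantile normalization. Mars2 was the least abundant member, with 27.7 to 60.1 reads in CT and C26 mice, and had an SE of 0.163.

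Levels between members were compared per kilobase of the principal transcript of GENCODE M21. In CT livers Nars had 841 ± 61.4 normalised reads per kb, Aars 751 ± 54.9, Kars 579 ± 29.5 and Eprs 578 ± 51.5 (mean ± SD, n = 8). Kars, Eprs and Dars, at 571.5 ± 29.9 reads per kb, did not differ beyond their spread. In C26 livers Nars and Aars kept these places at 1329 ± 74.9 and 1028 ± 53.9 reads per kb, whereas Kars moved from the fourth to the 12th place of 38 and Dars from the sixth to the 11th. At the lower end Wars2 and Pars2 had 31.0 ± 2.27 and 25.8 ± 5.19 reads per kb in CT, and Mars2 had 3.93 ± 0.961.

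Lars2, the mitochondrial leucine enzyme at chr9:123366927-123462666, stood apart in level, at 4644 ± 1003 reads per kb in CT. Its values ran from 12010 to 23130 reads in CT (median 18660), from 21160 to 44180 in C26 (median 32350) and from 16310 to 32760 in C26-CHO (median 23140). The groups overlapped, since C26 3 lay within the CT range. The change from CT to C26 was 0.86 (SE 0.163, limma adjusted p = 4.74e-05).

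Lars2 moved with Gm42418, an annotated locus at chr17:39846958-39848788 that overlaps the RefSeq gene Rn18s-rs5, a sequence related to 18S ribosomal RNA; the locus was chosen after its values were seen. Pearson r was taken on log2(value + 1) of Lars2 and Gm42418. Within CT mice r was 0.90 and Spearman's rho 0.90 (8 mice in each group). Within C26 mice they were 0.95 and 0.81, and within C26-CHO mice 0.93 and 0.90. In exact two-sided permutation tests each r had p = 0.00139 after adjustment over the 3 groups, and rho had unadjusted p = 0.00456, 0.0218 and 0.00456. Because the locus was chosen after its values were seen, no p value for r or rho given here allows for that choice. The r of Lars2 with other genes is not given. Without the 2 mice farthest from the median of Gm42418, r was 0.85 in CT (exact p = 0.025) and 0.80 in C26 (exact p = 0.0542). In C26-CHO it was 0.89 (exact p = 0.00972). These p values are unadjusted and use 6 mice, and that of C26 was above 0.05. The weight of the 2 mice and the smaller number of mice cannot be told apart there. Gm42418 itself averaged 146900 ± 38570 reads in CT, 294100 ± 52960 in C26 and 212200 ± 80880 in C26-CHO (SD, n = 8), and rose by 1.03 from CT to C26 (SE 0.213, limma adjusted p = 0.000135). The part of this locus in the Lars2 values was not tested, and summaries of mitochondrial members are given with and without Lars2. Without it 2 of 16 mitochondrial members rose and 9 fell, with a median of -0.26.

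**Figure D3:**
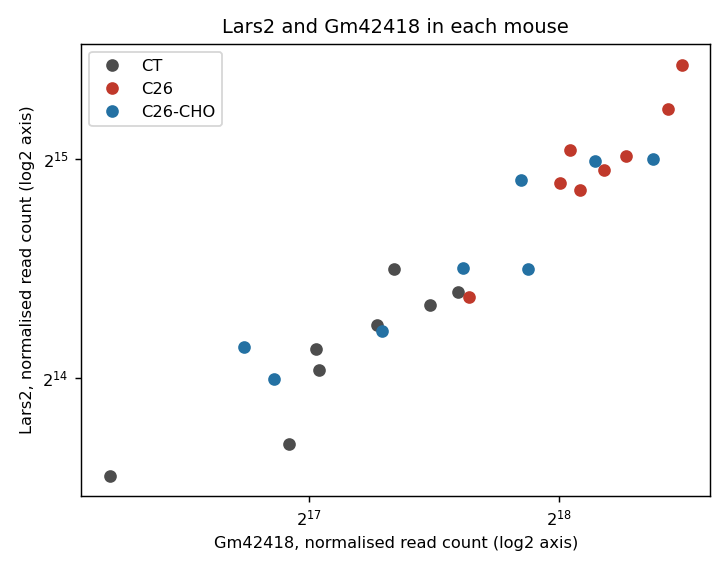
Normalised read count of Lars2 (y axis) against that of Gm42418 (x axis) in each mouse, both on log2 axes, with 8 mice a group. In each group mice with more Gm42418 reads had more Lars2 reads, and the C26 points lie mostly at the upper right.

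The contrast between compartments was also seen mouse by mouse. The mean log2 value of the 19 cytosolic members less that of the 17 mitochondrial ones was 1.34 ± 0.07 in CT, 1.86 ± 0.05 in C26 and 1.80 ± 0.09 in C26-CHO (SD, n = 8). It ran from 1.221 to 1.438 in CT mice and from 1.797 to 1.938 in C26 mice, with no overlap. These differences are not per length, so only their change between groups can be read. Without Lars2 they were 1.69 ± 0.07, 2.28 ± 0.05 and 2.19 ± 0.10. Both compartments contributed: from CT to C26 the cytosolic mean went from 9.82 to 10.14 and the mitochondrial mean without Lars2 from 8.13 to 7.86.

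**Figure D4:**
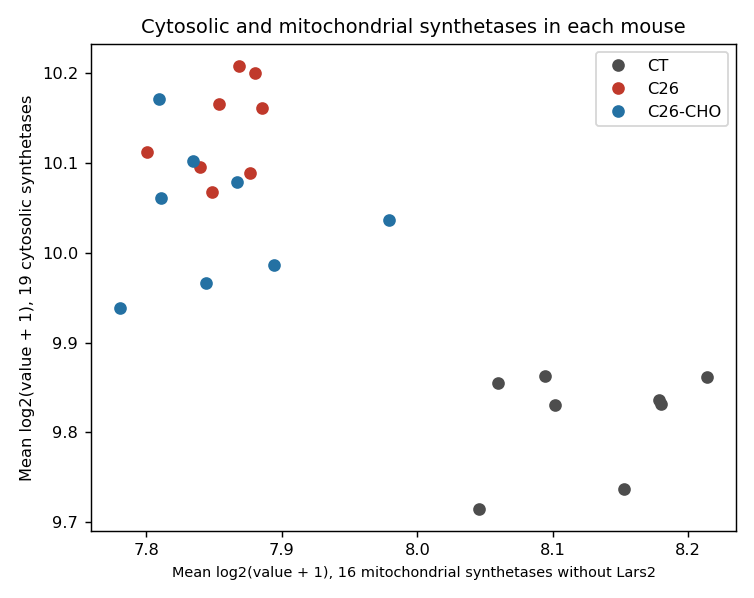
Mean log2(value + 1) of the 19 cytosolic synthetases (y axis) against that of the 16 mitochondrial synthetases without Lars2 (x axis), 1 point a mouse. CT mice lie at the lower right, and C26 and C26-CHO mice at the upper left, where the mitochondrial mean is lower and the cytosolic mean higher.

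Pairing the cytosolic with the mitochondrial enzyme of the same amino acid gave 19 pairs, some of which share Eprs, Fars2 or Tars2. The log2 ratio of the cytosolic to the mitochondrial enzyme had a higher mean in C26 than in CT in 15 pairs and a lower mean in 4, with a median difference of 0.71. In 11 pairs the ratio of every C26 mouse exceeded that of every CT mouse, in 1 pair (Tarsl2 and Tars2) every C26 mouse was lower, and 7 pairs overlapped. The same counts were not made for ratios of other genes, so they have no background beside them. Among single genes 35% did not overlap. The widest shift was that of asparagine, where the ratio of Nars to Nars2 went from 2.44 ± 0.15 in CT to 4.23 ± 0.13 in C26 (SD, n = 8), a difference of 1.79. Tryptophan, valine and tyrosine pairs followed with differences of 1.45, 1.16 and 1.13. For phenylalanine the difference was 1.06 for Farsa and 1.08 for Farsb over Fars2, of which Fars2 was called and the cytosolic subunits were not. For tryptophan Wars was called and Wars2 was not. The lower means, besides the Tarsl2 pair at -0.99, included those of Eprs over Ears2 (-0.36) and Lars over Lars2 (-0.20).

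**Figure D5:**
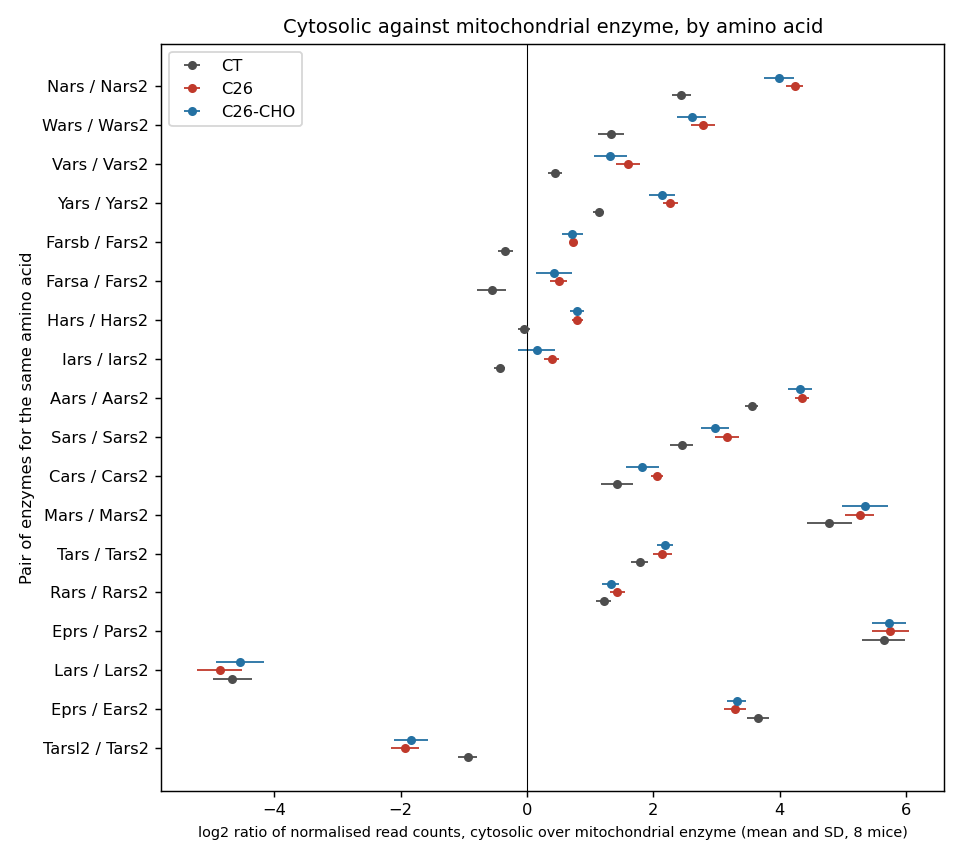
Log2 ratio of normalised reads of the cytosolic over the mitochondrial enzyme (x axis) for 18 of the pairs, ordered by the difference between C26 and CT; points are means and bars 1 SD over 8 mice of each group. C26 and C26-CHO points lie to the right of the CT point in most pairs, by 1.79 in C26 for asparagine, and to the left in the Tarsl2 pair.

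Other genes of tRNA charging and translation were counted from lists in C26 vs CT, with no test of a list. Over all tested genes 33.3% were called higher and 32.9% lower. Of 9 mitochondrial translation factors 7 fell and 1 rose (median -0.29). Gfm1, an elongation factor, fell by 0.48 (SE 0.0407), Mtif3, an initiation factor, by 0.60 (SE 0.0767) and Tufm, which carries charged tRNA to the mitochondrial ribosome, by 0.39 (SE 0.0540), with limma adjusted p from 1.36e-10 to 5.13e-07. The factor that rose, the ribosome recycling factor Mrrf (0.34), was chosen after its value was seen. Of 10 genes that complete or modify mitochondrial tRNA 6 fell and 1 rose (median -0.26). Gatb, a subunit of the amidotransferase that makes mitochondrial glutaminyl-tRNA, fell by 0.85 (SE 0.0646), and the modification enzymes Mto1 and Pus1 by 0.60 and 0.50. Gtpbp3, which acts with Mto1 in the same tRNA modification, rose by 0.80 (SE 0.0888).

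Cytosolic elongation factors had 3 of 6 members higher, 1 lower and 2 not called (median 0.21). The share called was near the 66.3% of all tested genes. Eef1g and Eef1b2, subunits of the exchange factor that recycles the carrier of charged tRNA, rose by 0.38 and 0.43, and Eef2, which moves the ribosome along, by 0.305. Eif5a fell by 0.18. Genes that make selenocysteinyl-tRNA and read it had 4 of 5 members lower, with the kinase Pstk at -0.84 (SE 0.120). Editing and synthetase-like proteins had 3 of 5 lower (Ptrh2, Dtd1 and Prorsd1). Subunits of eIF2 and eIF2B and the eIF2 kinases had 4 of 12 higher and 3 lower (median -0.01). The shares of this eIF2 list, unlike the lower shares of the selenocysteine and editing lists, were no larger than the 33.3% higher and 32.9% lower of all tested genes. In the eIF2 list the kinase of endoplasmic reticulum stress, Eif2ak3, rose by 0.83 (SE 0.120), and Eif2ak1 and Eif2ak2 fell by 0.32 and 0.35.

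Of 27 tested genes of the ATF4 and amino acid response 21 rose and 3 fell (median 0.89), against 33.3% and 32.9% of all tested genes. Atf4 mRNA went from 1547 ± 245 reads in CT to 2456 ± 129.5 in C26 (SD, n = 8), a change of 0.68 (SE 0.0703, limma adjusted p = 4.41e-09). Asparagine synthetase, Asns, which makes the amino acid charged by Nars and Nars2, went from 7.59 ± 4.80 to 538 ± 141 reads, a change of 6.10 on this log2(value + 1) scale. Psat1 of serine synthesis, the glutathione-degrading Chac1 and the stress transcription factor Ddit3 rose by 3.27, 3.05 and 1.15. The genes that fell, Gpt2 (-0.70), Shmt2 (-0.99) and Vldlr (-2.52), were chosen after their values were seen.

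Wars is known as an interferon-induced gene, so interferon-stimulated genes were listed beside it. None of the 14 tested rose and 12 fell (median -1.53), against 33.3% and 32.9% of all tested genes. Ifit1, Ifit3 and Rsad2, antiviral proteins, fell by 2.43, 2.36 and 1.95, and the transcription factor Irf7 by 1.905 (limma adjusted p from 1.75e-10 to 7.58e-09). The members not called, Irf1 and Isg15, had 0.16 and -0.03 (adjusted p = 0.288 and 0.854) and are named after their values were seen.

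Markers of liver cell types moved in the same comparison, in which 33.3% of all tested genes were called higher and 32.9% lower. In bulk tissue fewer cells of a type and less RNA per cell cannot be told apart. The tissue label was checked on 7 hepatocyte markers, all present at high levels. Their summed normalised reads ran from 1338000 to 1551000 in CT, from 490700 to 659400 in C26 and from 500500 to 710100 in C26-CHO, and 4 of 7 fell and 2 rose in C26 vs CT. Macrophage markers rose in 6 of 7 cases, with sums of 3386 to 5082 in CT and 6330 to 8237 in C26. Sinusoidal endothelium markers rose in 5 of 6 (3050 to 4454 against 4253 to 5882). Both tested neutrophil markers rose, S100a8 by 3.89 and S100a9 by 3.68, but the sum of the 7 listed was at most 564 reads in any C26 mouse. The 3 tested B cell markers fell, and none of the 5 T and NK cell markers had a mean of 10 reads (summed medians of 56.0 in CT and 13.9 in C26). Stellate cell markers had 2 of 7 higher and 1 lower, erythroid ones 3 of 5 higher and 1 lower, and of 4 cholangiocyte markers Sox9 rose. Of 2 tested pancreatic acinar genes 1 fell, and this was the list with a marker at 0 in all mice of a group, 1 in CT. The part of these shifts in the synthetase changes was not tested.

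The strand used in counting is not given in the sources used here. Of the 38 members 12 overlap an exon of another coding gene in GENCODE M21, 10 of them on the opposite strand, where reads cannot be assigned if strand was not used. The other 2 share bases on the same strand, which counting by strand does not separate: Aars (1326 bases with Exosc6) and Tarsl2 (923 with Tm2d3). The 10 include Wars (544 bases shared with Wdr25), Fars2 (920 with Nrn1), Iars2 (2034 with Rab3gap2), Farsb (2315 with Sgpp2) and Mars (68 with Ddit3, which itself rose). Hars and Hars2 share 198 bases with each other and moved in opposite directions.

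The comparison of C26-CHO with C26 asks what cholestyramine changed in tumour-bearing mice. None of the 38 synthetases was called in limma, against 0.705% of all tested genes, and the same count of 0 was found with edgeR's quasi-likelihood test under both of its scalings. At an unadjusted p under 0.05 there were 9 members in limma and 9 in each edgeR test, against 13% of all genes in limma. Of these 9 members 8 were cytosolic and all 9 had a fold change below 0. Fold changes were below 0 in 16 of 19 cytosolic members (median -0.07) and in 9 of 17 mitochondrial members (median -0.04, or 0.00 without Lars2), while the median over all genes was 0.00. This comparison and C26 vs CT share the C26 mice, and their values are given side by side only.

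The smallest p belonged to Sars, the serine enzyme. Its reads ran from 1098 to 1305 in CT (median 1244), from 1315 to 1648 in C26 (median 1426) and from 1123 to 1496 in C26-CHO (median 1237). C26-CHO mice overlapped both other groups, and their median was close to that of CT. The change from C26 was -0.23 (SE 0.0587, limma adjusted p = 0.0702), and against CT it was 0.02 (adjusted p = 0.764). Sars passed the threshold with C26-CHO 2 left out (-0.265, adjusted p = 0.0188), with a block for the replicate number (-0.23, adjusted p = 0.0357) and after quantile normalization (-0.27, adjusted p = 0.0397).

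Next by p came Vars and Yars, with -0.22 and -0.19 (adjusted p = 0.146 and 0.156), and Rars with -0.15 (adjusted p = 0.198). Lars2 had -0.44 (SE 0.163, adjusted p = 0.212), beside -0.55 for Gm42418 (adjusted p = 0.243). Aars and Dars had 0.00, with SEs of 0.0573 and 0.0438. The largest positive value among the 38 was 0.12 for Nars2 (SE 0.0644, adjusted p = 0.431). In all 19 pairs of cytosolic and mitochondrial enzymes the C26-CHO and C26 mice overlapped, and the median difference of the log2 ratio was -0.05.

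The C26-CHO mice differed among themselves. Over the 30 members called in C26 vs CT, each mouse was placed on the way from the CT mean (0%) to the C26 mean (100%), by the median over members. C26-CHO 1 stood lowest at 64.4%, with 19 of the 30 members on the CT side of every C26 mouse. By the cytosolic less mitochondrial mean C26-CHO 7 was nearest to CT (1.69, against 1.72 for C26-CHO 1). C26-CHO 6, 7 and 5 stood at 71.9%, 72.2% and 75.5%, with 15, 15 and 11 such members. C26-CHO 4 stood at 106.7% and had none, and C26-CHO 2, 3 and 8 lay between 87.9% and 98.8%. Members and scale were set with the same C26 mice, so these placings are a description. Without C26-CHO 1 no synthetase was called either.

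In the same comparison 2 of the 27 ATF4 and amino acid response genes fell, against 0.705% of all tested genes called in either direction. Psat1 fell by 1.19 (adjusted p = 0.0149) and Trib3, chosen after its value was seen, by 1.15 (adjusted p = 0.0208). With only these 2 groups in the fit 0 genes were called lower, so neither call held there. The list median was -0.31 and 14 members had an unadjusted p under 0.05, against 13% of all tested genes. Atf4 itself had 0.00 (SE 0.0703) and Asns -1.17 (SE 0.343, adjusted p = 0.109). None of the mitochondrial translation factors, mitochondrial tRNA genes, elongation factors, eIF2 genes, selenocysteine genes, editing proteins or scaffolds was called, with 1, 2, 1, 0, 0, 1 and 0 members at an unadjusted p under 0.05. Interferon-stimulated genes had 0 of 14 called and a median of 0.38. None of the cell type markers was called.

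Against CT, the C26-CHO livers had 12 cytosolic members higher, 2 lower and 5 not called, and 3 mitochondrial members higher, 11 lower and 3 not called. Over all tested genes 62.2% were called in this comparison, 31.3% higher and 30.9% lower. Kars was lower (-0.39) and Gars was not called (0.03). Wars had 1.30, Yars 0.78, Lars 0.54, Nars 0.53, Cars 0.48 and Aars 0.46, next to 1.51, 0.96, 0.66, 0.66, 0.68 and 0.46 in C26 vs CT, which uses the same CT mice. Nars2, Fars2 and Vars2 had -1.01, -0.95 and -0.67, next to -1.13, -0.98 and -0.73. Tars2 and Mars2 were lower with -0.20 and -0.41 (adjusted p = 0.0021 and 0.03). Iars, Rars and Sars, called in C26 vs CT, had 0.11, 0.11 and 0.02 here (adjusted p = 0.197, 0.0731 and 0.764). Whether these values differ between the tumour groups is the test of C26-CHO vs C26 above, in which none was called.

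Some calls of C26-CHO vs CT rested on single libraries or on the processing. Lars2 (0.42, adjusted p = 0.028) was not called without any of CT 1, CT 7, C26-CHO 3, C26-CHO 4 or C26-CHO 6 (adjusted p = 0.0609 to 0.07). Pars2 (0.31) was not called without CT 6, CT 7, CT 8 or C26-CHO 5 (0.0501 to 0.0591) or after quantile normalization (0.22, adjusted p = 0.101), and without CT 7 a single mitochondrial member, Ears2, was called higher. Mars2 was not called without CT 3, CT 7 or C26-CHO 6 (0.0674 to 0.0801) or with only these 2 groups in the fit (-0.41, adjusted p = 0.0592). Tars (0.19) was not called without CT 7, C26-CHO 1 or C26-CHO 4 (0.0546 to 0.0747), and Mars (0.15) without C26-CHO 4 (0.0542). Rars was called without CT 1 (adjusted p = 0.0469) or C26-CHO 5 (0.0461), after quantile normalization (0.0181) and in edgeR with TMM (0.0405). Farsb (0.11, adjusted p = 0.104) was called without C26-CHO 6 (0.0183) and in edgeR with TMM (0.0479). Without C26-CHO 1 there were 11 cytosolic members higher and 2 lower, and 3 mitochondrial members higher and 11 lower.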

How the data were processed

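Liver mRNA of 24 mice, 8 per group by their titles, was measured by RNA-seq. Per the submitters' processing notes, reads were handled with bcl2fastq 2.17, FastQC, Trimmomatic 0.38, STAR 2.6.1d and DESeq2 1.22.2 on GRCm38. What counted the reads, on which annotation and with what use of strand is not given in the sources used here. The authors deposited a normalised signal, the count of each gene divided by a size factor of its library. Divided by the smallest value above 0 of its library, taken as 1 read, every value (100%) came within 0.001 of a whole number, giving recovered counts of 19.9 to 30.5 M per library. In C26-CHO 3 and 4 the size factor was so close to 1 that a separate check of this step could not be made. A symbol was not found in GENCODE M21 for 433 of 22392 identifiers, which held 0.135% of reads.

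The 14040 genes whose mean value reached 10 were tested with limma 3.58.1 (R 4.3.3, trended eBayes) on log2(value + 1), with the 3 groups in a single fit and no covariate. Calls were made at a Benjamini-Hochberg adjusted p under 0.05 within each comparison; adjusted p values are from this test unless another tool is named. The test was also run on simulated data in which few genes changed, unlike C26 vs CT. That run does not measure the share of false calls here. Alternatives were pseudocounts of 0.5 and 5, no filter, a mean of at least 50, quantile normalization, only the compared groups, the replicate number as a block, edgeR 4.0.16 on the recovered counts with TMM or the deposited size factors, and leaving out each library. Dropping Lars2 was added after the data were seen.

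All members enter the counts, and some single genes are not reported here. Other genes come from lists, with up to 4 members of the smallest p in C26 vs CT, and Atf4, Ddit3, Asns and the 3 scaffolds always named; a gene outside these rules is marked in the text as picked after its value was seen. The members and lists were chosen with earlier results of these data known. Promoter sequences are from RefSeq, and no protein sequence was used here.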

Additional observations from a re-analysis of the deposited data

Results flagged for a closer look

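Of 114 sets of 8 mice (38 synthetases in 3 groups), 1 held a mouse far from the rest. Iars2, the mitochondrial isoleucine enzyme, had 1010 normalised reads in C26 3, and the next highest C26 mouse had 872 reads. The gap was 0.672 of the range of the group. Chance marks about 1 in 20 such sets. The fall of Iars2 in C26 vs CT was called with and without any single library, and C26 3 was still below every CT mouse, the lowest of which had 1128 reads.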

How the results depend on the processing

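In C26 vs CT every member kept its direction and its side of the threshold when any of the 24 libraries was left out. Under the other alternatives the exceptions, all with quantile normalization, were Gars, Pars2 and Wars2 (-0.0361), as given above. The count of all genes called in C26-CHO vs C26 was 99, 10 with only these groups, and 23 to 273 without a single library: 25, 53 and 51 without C26 1, 2 and 7, and 273, 160, 55, 23 and 56 without C26-CHO 3, 4, 6, 7 and 8. Cytosolic members called lower there were 1 in place of 0 (Sars) under quantile normalization, with the replicate block and without C26-CHO 2. Mitochondrial members called higher in C26-CHO vs CT were 3, and 1 without CT 7.

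The cytosolic less mitochondrial mean moved with the genes included. With a mean of at least 50, which drops Mars2, it was 1.15 in CT, 1.67 in C26 and 1.60 in C26-CHO, and without Lars2 1.69, 2.28 and 2.19. Under quantile normalization it was 1.92 in C26, and C26 minus CT was 0.63 in place of 0.53. The cause of that last shift was not tested.

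Signs changed where the value was near 0. In C26-CHO vs C26 quantile normalization gave Aars -0.069 and Tarsl2 0.0236, and Tarsl2 was 0.0141 in edgeR with TMM and 0.0124 with the deposited size factors. In C26-CHO vs CT quantile normalization gave Rars2 -0.0326 and Wars2 -0.0535. With a library left out, C26-CHO vs C26 ranged from -0.0348 to 0.0251 for Aars, -0.003 to 0.0665 for Cars2, -0.0191 to 0.0158 for Dars, -0.0042 to 0.0594 for Fars2, -0.0699 to 0.0062 for Farsa, -0.0048 to 0.0599 for Farsb, -0.0828 to 0.0107 for Pars2, -0.0792 to 0.0024 for Sars2 and -0.0627 to 0.0441 for Tarsl2. C26-CHO vs CT ranged from -0.0033 to 0.0822 for Farsa, -0.0006 to 0.0584 for Gars, -0.0214 to 0.0354 for Rars2, -0.0162 to 0.0429 for Sars and -0.0176 to 0.0499 for Wars2.

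The replicate numbers showed at most a weak pairing of the mice. Deviations of same-numbered libraries of different groups had correlations of -0.204 to 0.255 over 24 pairs (median 0.077, against -0.005 for other pairs). Of the libraries 5 correlated best with their own number, and how many would do so by chance was not computed. With the replicate block 9643, 97 and 9079 genes were called in C26 vs CT, in C26-CHO vs C26 and in C26-CHO vs CT. Depth limits Mars2 and Pars2 most, with the lowest counts of the members.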
